A study of Mus musculus with 6 samples.

Results

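The anaphase-promoting complex is a large ubiquitin ligase of the cell cycle. In mouse oocytes, 10 of its genes were examined: the activators Cdc20 and Fzr1, and the subunit genes Anapc1, Anapc2, Anapc4, Anapc5, Anapc10, Cdc16, Cdc23 and Cdc27. They were listed by symbol as members of the complex, and all 10 were found among the 28738 genes of the deposited table and passed the filter on low values. The cells were fully grown germinal vesicle (GV) oocytes, which rest in meiotic prophase, from control mice and from mice in which Uba3 was conditionally knocked out (Uba3 cKO). Both groups were of the strain given as C57/Bl6/N;129SvEv7, and each had 3 RNA sequencing libraries made from pools of about 150 oocytes. The UBA3 protein is part of the enzyme through which NEDD8, a small relative of ubiquitin, is attached to the cullin scaffolds of another class of ubiquitin ligases. The driver of the deletion, the alleles of the controls, the age of the mice and whether each pool had its own mice are details not given in the sources used here. Each p-value therefore rests on the spread between pools, which may be technical.

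The complex marks proteins with ubiquitin chains so that the proteasome destroys them, and its activator decides when it does so and on which substrates. In an oocyte held in prophase, FZR1 (also called CDH1) is the active partner and keeps cyclin B1 low, which helps to hold the arrest. After meiosis resumes, CDC20 takes over, and the destruction of securin and cyclin B1 starts anaphase. Fully grown oocytes are largely silent in transcription, so their mRNA is for the most part a store laid down during growth, and mRNA levels need not follow protein levels.

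The promoters of the activators are shown because the balance of these genes within each library was compared, and because cell cycle genes are known to carry a short element called the CHR, often with CCAAT boxes near it. Promoter windows of 250 bases before to 50 bases after the start site were matched by symbol for 9 of the 10 genes, from RefSeq on GRCm38.p6, and Cdc23 was not matched. The lines give the 100 bases before the start site, 5′ to 3′ on the gene's strand, with matches to the CHR letters TTTGAA or to CCAAT, on either strand, in capitals. The windows lie on the minus strand at chr4:118437344-118437443 for Cdc20 and at chr10:81378371-81378470 for Fzr1.
Cdc20: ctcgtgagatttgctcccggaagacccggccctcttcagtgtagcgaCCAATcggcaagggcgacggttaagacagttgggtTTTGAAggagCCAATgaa
Fzr1: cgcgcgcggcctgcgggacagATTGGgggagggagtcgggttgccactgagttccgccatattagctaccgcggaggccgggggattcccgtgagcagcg
The Cdc20 window held TTTGAA at 18 bases and CCAAT at 53 and 8 bases before the start. Fzr1 held CCAAT in the reverse orientation, at 79 bases, and no TTTGAA. Cdc20 was the 1 gene of the 9 with TTTGAA in its window, while 5 of the 9 held CCAAT (Cdc20, Fzr1, Anapc5, Anapc10 and Cdc27). Over all 32851 promoter windows, 17.9% held TTTGAA and 37.4% held CCAAT. A match describes the letters only.

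None of the 10 genes was called different between Uba3 cKO and control oocytes, where a call was an adjusted p under 0.05 in limma, a linear model fitted over all 17450 genes that passed the filter. Over those genes 8.14% were called, 5.64% higher and 2.5% lower. At an unadjusted p under 0.05 there were 2 of the 10, Cdc20 and Cdc16, against 22.8% of all genes tested. Without overlap between the groups there were 3 of 10, Cdc20 and Cdc16 lower and Cdc27 higher in Uba3 cKO, against 27.9% of all genes, 12.8% lower and 15.1% higher. The Uba3 cKO mean was below the control mean in 8 of the 10, against 51.8% of all genes, and the median log2 difference was -0.12, against -0.01. The 95% intervals of the 10 differences lay between -0.51 and 0.40, and these outermost bounds stand for levels 1.42-fold lower, for Cdc20, and 1.32-fold higher, for Anapc1. These intervals are for each gene alone and are not adjusted for the number of genes.

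**Figure D1:**
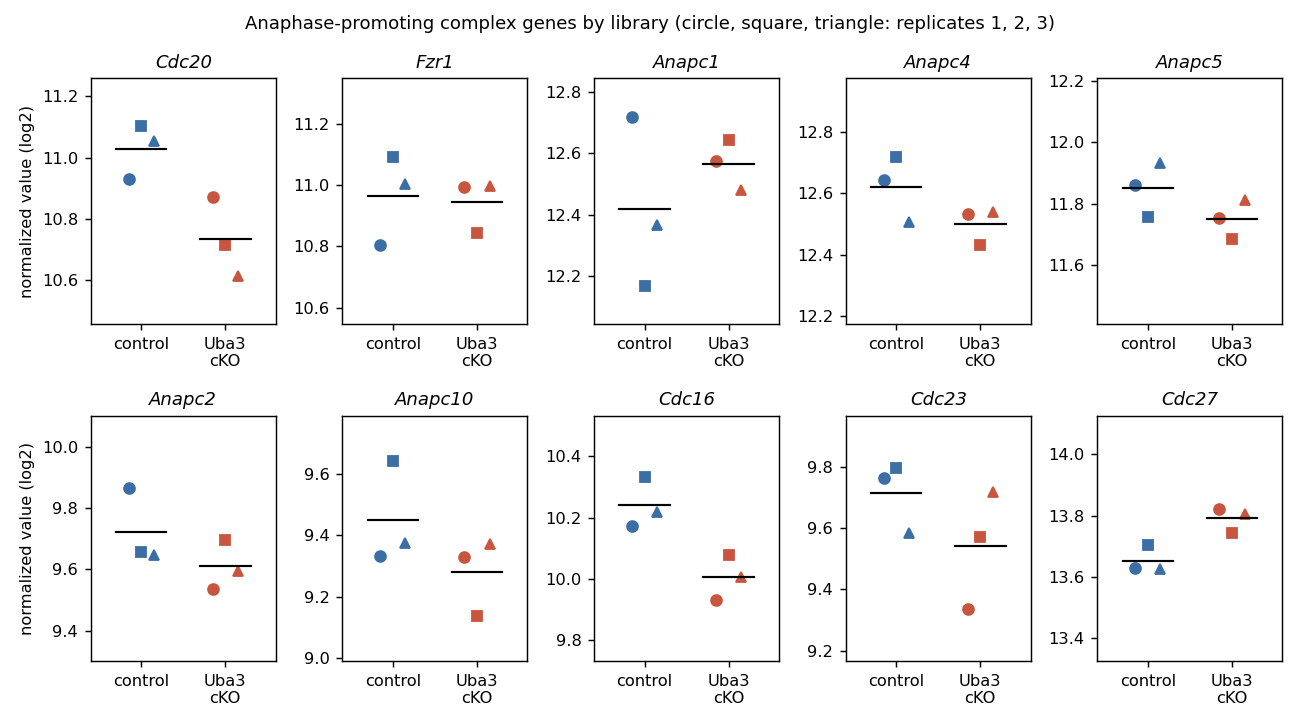
Normalized log2 value of each gene in each library, with control in blue and Uba3 cKO in red, symbols for the replicate number and a bar at each group's mean. Every panel spans the same range of log2 units, and the groups stand clear of each other for Cdc20, Cdc16 and Cdc27 and overlap for the other 7 genes.

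Neither activator was called, and the groups overlapped for Fzr1 but not for Cdc20. Cdc20, the activator of anaphase, stood at log2 values of 10.93, 11.10 and 11.05 in control replicates 1, 2 and 3 and at 10.87, 10.72 and 10.61 in Uba3 cKO replicates 1, 2 and 3. Every Uba3 cKO library was below every control library, although the gap between control replicate 1 and Uba3 cKO replicate 1 was narrow. The difference was -0.295 (SE 0.10, 95% interval -0.51 to -0.08), a 1.23-fold lower level, and its adjusted p of 0.0888 in limma missed the threshold. Leaving out each library in turn gave differences from -0.36 to -0.23, and adjusted p from 0.0547 without control replicate 1 to 0.273 without Uba3 cKO replicate 3.

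Fzr1, the activator of the prophase arrest, stood at 10.80, 11.09 and 11.00 in control and at 10.99, 10.85 and 11.00 in Uba3 cKO replicates 1, 2 and 3. The Uba3 cKO libraries all fell within the control range. The log2 difference was -0.02 (SE 0.10, adjusted p = 0.931 in limma), and its 95% interval of -0.24 to 0.20 leaves room for a 1.18-fold lower or 1.15-fold higher level. Its sign changed without control replicate 2 or Uba3 cKO replicate 2.

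The difference of the activators within a library cancels any offset that all genes of that library share on the log2 scale. Whether it is free of the authors' scaling is not known, because their transform is not named. Cdc20 minus Fzr1 was 0.13, 0.01 and 0.05 on the log2 scale in the control libraries and -0.12, -0.13 and -0.39 in the knockout libraries, in the order of their replicate numbers. All 3 control libraries lay above 0 and all 3 Uba3 cKO libraries below it. The value 0 has no meaning of its own here, because these values are not corrected for gene length. Uba3 cKO replicate 3 lay farthest down. Control libraries had a mean of 0.06 ± 0.06 (SD, n = 3). Uba3 cKO libraries had one of -0.21 ± 0.15 (SD, n = 3), a change of -0.28 (exact two-sided permutation p = 0.1, the smallest that 3 against 3 libraries allow). Without Uba3 cKO replicate 3 the change was -0.19. This change rests on the same values as the differences of -0.295 for Cdc20 and -0.02 for Fzr1 given above, and is not a separate result. Per kilobase of exons, the Cdc20 level was 2.51 times that of Fzr1 in control and 2.07 times in Uba3 cKO oocytes. So corrected, the log2 difference was above 0 in every library, at 1.28 to 1.39 in control and 0.88 to 1.14 in Uba3 cKO. These ratios depend on the length used. Control log2 levels were 10.13 and 8.80 per kilobase of exons, and 10.19 and 9.35 per kilobase of the longest coding transcript, for Cdc20 and Fzr1.

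**Figure D2:**
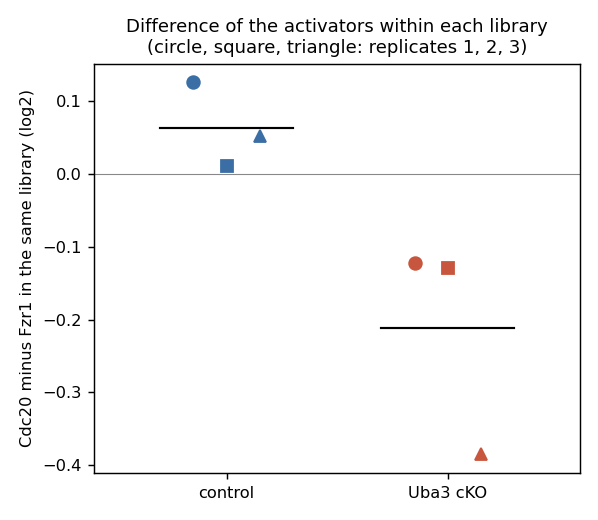
Log2 value of Cdc20 minus that of Fzr1 within each library, with symbols for the replicate number and a bar at each group's mean. The control libraries sit between 0.01 and 0.13 and the Uba3 cKO libraries between -0.39 and -0.12.

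The platform subunits ANAPC1, ANAPC4 and ANAPC5 join the catalytic arm to the arm that holds the activator. Anapc1, the largest of them, stood at 12.72, 12.17 and 12.37 in control and at 12.58, 12.64 and 12.48 in Uba3 cKO replicates 1, 2 and 3. Control replicate 1 was the highest library of all and control replicate 2 the lowest, and the Uba3 cKO libraries lay between them. Anapc1 had the widest spread within groups of the 10 genes, with a residual SD of 0.21 against a median of 0.10 over all kept genes. Its log2 difference of 0.15 (adjusted p = 0.503 in limma) became 0.30 without control replicate 1 (adjusted p = 0.0664) and 0.02 without control replicate 2. Anapc4 stood at 12.64, 12.72 and 12.51 in control and at 12.53, 12.43 and 12.54 in Uba3 cKO libraries. Anapc5 stood at 11.86, 11.76 and 11.93 in control and at 11.75, 11.68 and 11.81 in Uba3 cKO libraries. Both overlapped between the groups, with log2 differences of -0.12 for Anapc4 and -0.10 for Anapc5 and adjusted p of 0.441 and 0.543 in limma. These became -0.07 for Anapc4 without control replicate 2 and -0.06 for Anapc5 without control replicate 3.

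The catalytic arm holds ANAPC2, a distant relative of the cullins, and next to it ANAPC10, which helps the activator to bind substrates. Anapc2 stood at 9.86, 9.66 and 9.65 in control and at 9.54, 9.70 and 9.60 in Uba3 cKO replicates 1, 2 and 3. Control replicate 1 was apart at the top, and the other 5 libraries were mixed. Anapc10 stood at 9.33, 9.64 and 9.37 in control and at 9.33, 9.14 and 9.37 in Uba3 cKO replicates 1, 2 and 3. Here control replicate 2 was the highest and Uba3 cKO replicate 2 the lowest, and the other 4 libraries lay within a narrow band. The log2 differences were -0.11 for Anapc2 (adjusted p = 0.552 in limma) and -0.17 for Anapc10 (adjusted p = 0.4 in limma). They became -0.04 for Anapc2 without control replicate 1, and -0.07 and -0.10 for Anapc10 without control replicate 2 and Uba3 cKO replicate 2.

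CDC16, CDC23 and CDC27 are built of tetratricopeptide repeats (TPR) and form the arm of the complex on which CDC27 receives the activator's tail. Cdc16 stood at 10.17, 10.33 and 10.22 in control and at 9.93, 10.08 and 10.01 in Uba3 cKO replicates 1, 2 and 3. The groups did not overlap, and the difference was -0.23 (SE 0.10, 95% interval -0.44 to -0.03, adjusted p = 0.16 in limma). Cdc27 stood at 13.63, 13.70 and 13.63 in control and at 13.82, 13.74 and 13.81 in Uba3 cKO replicates 1, 2 and 3. Its groups did not overlap either, but here the Uba3 cKO libraries were the higher ones, by 0.14 (SE 0.07, 95% interval -0.02 to 0.30, adjusted p = 0.294 in limma). Cdc27 had the smallest spread within groups of the 10 genes, with a residual SD of 0.04. Cdc23 stood at 9.76, 9.79 and 9.58 in control and at 9.34, 9.57 and 9.72 in Uba3 cKO replicates 1, 2 and 3, with overlap and a difference of -0.17 (adjusted p = 0.399 in limma). It was -0.07 without Uba3 cKO replicate 1, the lowest library, and -0.26 when Uba3 cKO replicate 3 was left out. Of the Cdc23 exonic bases in the annotation, 13.4% overlap exons of Kif20a on the opposite strand, so reads there cannot be assigned without the strand setting of the counting. That share was 2.84% for Cdc20, with Elovl1, 0.0891% for Fzr1, with Mfsd12, and 0 for the other 7 genes.

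**Figure D3:**
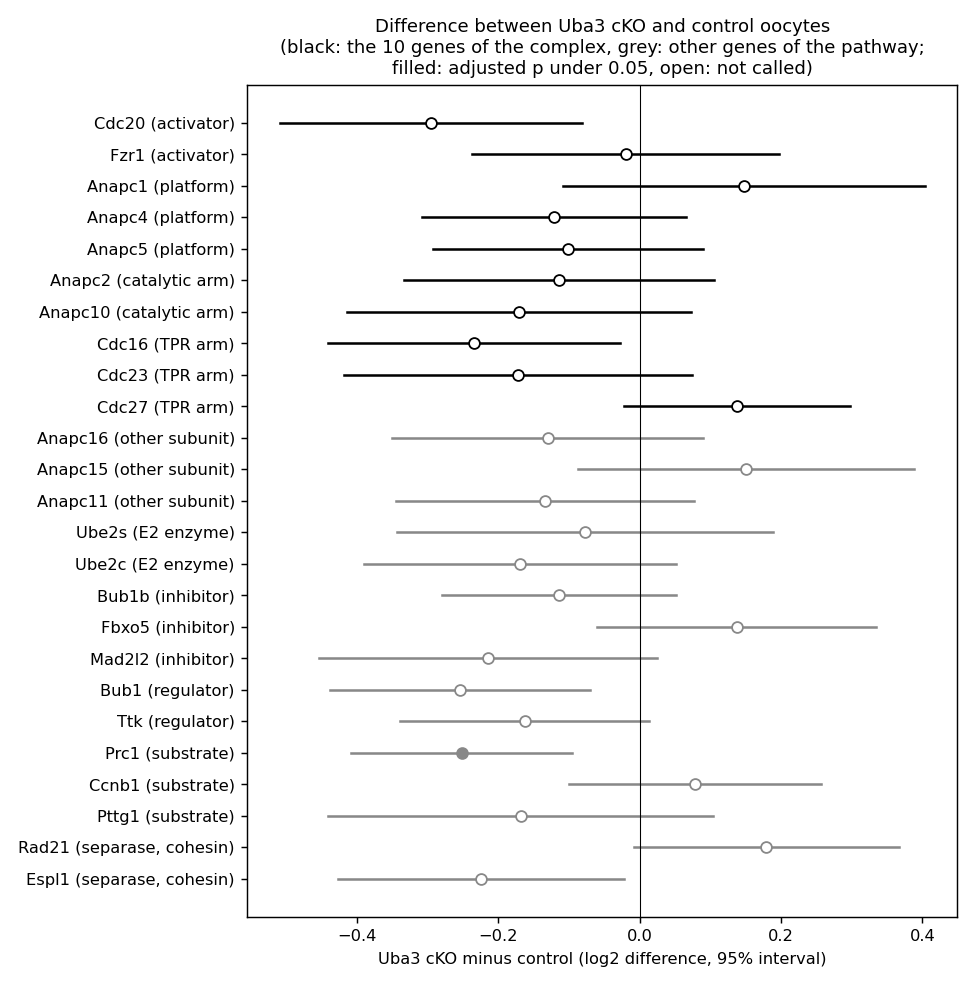
Log2 difference, Uba3 cKO minus control, with its 95% interval, for the 10 genes of the complex in black and for other genes of the pathway named in the text in grey. Of the points shown, Prc1 alone is filled (adjusted p under 0.05), and in black the intervals of Cdc20 and Cdc16 lie wholly below 0.

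Levels of different genes were compared per kilobase of annotated exons, as the log2 of the value per kilobase. In control oocytes Cdc27 was highest at 11.01, then Cdc20 at 10.13, Anapc4 at 10.02, Anapc5 at 9.24 and Fzr1 at 8.80. Below them came Cdc16 at 8.61, Anapc1 at 8.36, Anapc2 at 7.94, Anapc10 at 7.18 and Cdc23 at 6.47. The range from Cdc27 to Cdc23 was 23.3-fold, and Cdc27 was 1.84 times Cdc20, its nearest neighbour. Over the 6 libraries the values overlapped between Cdc20 and Anapc4, between Fzr1 and Cdc16 and between Cdc16 and Anapc1, while the other neighbours did not overlap. Within a library, Fzr1 was above Cdc16 in 6 of 6, Cdc20 above Anapc4 in 3 of 6 and Cdc16 above Anapc1 in 2 of 6, so the order of the last 2 pairs was not the same in every library. The annotated exons include isoforms that oocytes may not use, and the folds above hold for exonic length alone. By the longest coding transcript, Cdc27 stood at 11.21 in control, Anapc4 came next at 10.68 and Anapc10 was lowest at 7.25. Per kilobase of the longest coding transcript, Cdc27 was again first, Fzr1 again the fifth and Anapc2 again the eighth, while Anapc4 and Anapc5 passed Cdc20, Anapc1 passed Cdc16 and Cdc23 passed Anapc10. The TPR arm, which is built from a pair of each of its proteins, had both the highest and, per kilobase of exons, the lowest of the 10 genes.

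**Figure D4:**
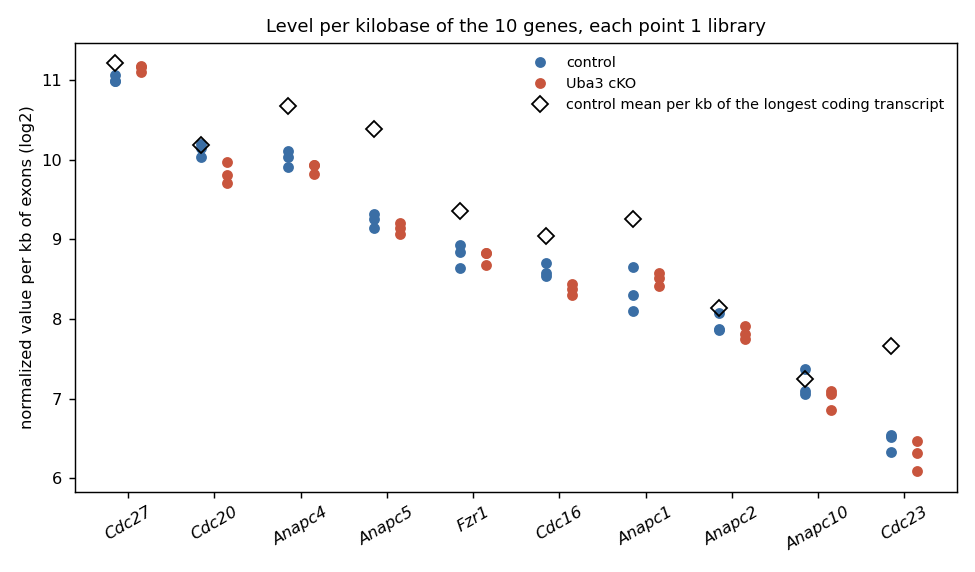
Level of each gene per kilobase of exons on a log2 scale, with 1 point for each library, control in blue and Uba3 cKO in red, and an open diamond for the control mean per kilobase of the longest coding transcript. Cdc27 stands highest and Cdc23 lowest per kilobase of exons, and the diamonds show how far the choice of length moves Anapc4, Anapc5, Anapc1 and Cdc23.

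The genes whose pattern was most like that of an activator were found from the root mean square (RMS) distance between log2 values over the 6 libraries, after each gene was centred on its own mean, among 11437 protein-coding genes whose mean linear value was at least 50. For Cdc20 they were Kat8, a histone acetyltransferase gene, at an RMS distance of 0.033, the zinc finger gene Zfp235 at 0.035 and Baiap2, an adaptor of actin signalling, at 0.036. For Fzr1 they were Dnajc8 at 0.017, Fetub at 0.020 and Rac3 at 0.022. These distances favour genes whose spread is like that of the activator and say only that the profiles are alike.

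The other 6 subunit genes gave no call either, against 8.14% called over all genes tested. Their log2 differences ran from -0.13 to 0.15, with a median of -0.04. Anapc16 and Anapc15 had the highest levels per kilobase among them, with differences of -0.13 and 0.15. That of Anapc16 was -0.03 without control replicate 2, and that of Anapc15 was 0.06 without control replicate 1 and 0.24 without Uba3 cKO replicate 2. Anapc11, the RING subunit that works with ANAPC2, had a difference of -0.13 and the smallest p of the 6 (adjusted p = 0.451 in limma). Of the Anapc15 exonic bases, 38.4% overlap Tomt on the opposite strand, and of those of Anapc13 10.1% overlap Cep63, so these values are uncertain. Of 5 genes for ubiquitin-conjugating enzymes (E2) that supply the complex, none was called, against 8.14% of all genes. Ube2c, which starts the chains, had a difference of -0.17, and Ube2s, which extends them, one of -0.08. With single libraries left out, that of Ube2c ran from -0.23 to -0.09 and that of Ube2s from -0.23 to 0.03.

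None of 6 inhibitor genes was called, against 8.14% of all genes. Bub1b, whose product BUBR1 is part of the checkpoint complex that holds CDC20, had the highest level per kilobase (13.56 on the log2 scale in control) and a log2 difference of -0.11, which ran from -0.18 to -0.07 with single libraries left out. Fbxo5, which encodes EMI1, an inhibitor of the complex in prophase oocytes, had a log2 difference of 0.14 (95% interval -0.06 to 0.33), and of 0.07 without Uba3 cKO replicate 3. Mad2l2, which binds FZR1, had a difference of -0.21 (adjusted p = 0.273 in limma), and of -0.11 without Uba3 cKO replicate 2. None of 10 regulators was called, against the same 8.14% of all genes. The checkpoint kinase gene Bub1 came closest, at 13.05, 13.27 and 13.08 in control and 12.89, 12.83 and 12.92 in Uba3 cKO replicates, without overlap and with a difference of -0.25 (adjusted p = 0.0882 in limma). Its adjusted p was 0.0382 under quantile normalization, 0.166 with a replicate block, and from 0.0567 to 0.239 with single libraries left out. Ttk, another checkpoint kinase gene, had a difference of -0.16. Both of these were lower, but of the 10 regulators 4 had a difference below 0 and 6 above. Their differences ran from -0.25 to 0.35, with a median of 0.05.

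Of 24 genes for substrates of the complex, 1 fell and none rose, against 2.5% lower and 5.64% higher over all genes, and 23 were not called. The one that fell was Prc1, which encodes a protein that crosslinks microtubules of the spindle midzone. It stood at 14.05, 14.12 and 14.14 in control and at 13.86, 13.82 and 13.87 in Uba3 cKO replicates 1, 2 and 3, without overlap. The difference was -0.25 (SE 0.07) with an adjusted p of 0.0483 in limma, but of the 6 fits that left out 1 library, Prc1 kept its call in that without control replicate 1 alone (adjusted p up to 0.19 in the others). Cyclin B1 and securin, whose loss starts anaphase, had the highest levels per kilobase of the substrates in control, 12.91 for Ccnb1 and 12.55 for Pttg1. Ccnb1 stood between 14.85 and 15.11 in control and between 14.95 and 15.16 in Uba3 cKO libraries, and Pttg1 between 13.20 and 13.84 in control and between 13.32 and 13.49 in Uba3 cKO libraries. Both overlapped, with log2 differences of 0.08 for Ccnb1 and -0.17 for Pttg1, and the value of Pttg1 rested on single controls: it was -0.34 without control replicate 1 (adjusted p = 0.0374 in limma) and -0.02 without control replicate 2 (adjusted p = 0.947). That of Ccnb1 ran from 0.01 without control replicate 3 to 0.14 without control replicate 2. Of the genes downstream of securin that passed the filter, 3 of 4, none was called, against 8.14% of all genes. The other, Rec8, did not pass the filter and was not assessed. Espl1, which encodes separase, had a difference of -0.22 (adjusted p = 0.17 in limma) and Rad21, a cohesin subunit gene, one of 0.18. Over the 51 kept genes of these lists together, 1 was called lower and none higher, against 2.5% lower and 5.64% higher over all kept genes. Their median log2 difference was -0.04, against -0.01 over all kept genes.

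Uba3 itself was at 11.37, 11.46 and 11.34 in control and at 10.03, 10.16 and 10.36 in Uba3 cKO replicates, a difference of -1.21 (adjusted p = 2.07e-05 in limma), so the targeted gene was lower in each library labelled Uba3 cKO. Pearson correlations across the kept genes were 0.997 to 0.998 within groups and 0.995 to 0.997 between them. As the log2 of summed linear values, 15 oocyte markers stood at 18.97 to 19.12 in control and 18.78 to 18.95 in Uba3 cKO. These sums were far above those of the other cell types, and every Uba3 cKO library was below every control library. Abundant markers weigh most in such a sum. With the 15 markers weighted equally, the groups overlapped. Their mean log2 deviations from each gene's own mean were -0.035, 0.036 and 0.056 in control and 0.082, -0.155 and 0.016 in Uba3 cKO replicates. The log2 sum of 20 granulosa and cumulus markers was 14.53 to 14.99 in control against 14.35 to 14.67 in Uba3 cKO. For 16 theca and stroma markers it was 11.99 to 12.60 against 11.51 to 11.84, without overlap, as for the oocyte sum. For 12 blood and immune markers it was 9.22 to 9.47 against 9.10 to 9.23. For 9 endothelial markers it was 11.99 to 12.10 against 11.99 to 12.23. Among the markers that passed the filter, 7 of 16 of theca and stroma fell and none rose, against 2.5% of all genes lower and 5.64% higher. Of the oocyte markers 2 of 15 fell and 1 rose, of granulosa and cumulus 2 of 18 fell and 2 rose, of blood and immune cells 2 of 8 fell and of endothelium 1 of 8 fell. The part of these markers in the values of Cdc20 and Cdc16 was not tested. In bulk RNA, fewer cells of a type and less RNA per cell cannot be told apart.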

How the data were processed

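Per the labels' protocols, oocyte RNA was taken up with PicoPure and turned into Illumina TruSeq libraries for a NovaSeq. Per the submitters' processing notes, the tools were fastp, STAR, featureCounts and DESeq2 and the build GRCm39, with no versions or settings; strand and multi-mapping settings are not given in the sources used here. Values in the table the authors deposited are on a log2 scale and already normalized, by a transform that is not named, and run from 0.0363 to 18.01. Without counts the depth is unknown, and counting error cannot be given. If the transform shrinks low values, differences of low genes are understated.

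Symbols came from a GENCODE M21 table and were found for 27660 of 28738 IDs (96.2%). Exonic lengths and overlaps came from GENCODE M21, on an earlier build, so no gene coordinates are given besides those of the promoter windows, on GRCm38.p6. Genes were kept at a linear value of 10 or more in at least 3 of 6 libraries, which kept 17450. Groups came from the sample titles. Uba3 cKO was compared with control by limma 3.58.1 (R 4.3.3, intensity trend, no pseudocount), with Benjamini-Hochberg adjustment over all kept genes. The fit was tested on simulated data. A difference within a library was compared by an exact permutation test. Alternatives covered the filter, scaling, pseudocount, variance model, weights, threshold, a replicate block and each library left out; the length measure was added after seeing the data.

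The genes and lists were chosen by symbol and known role, but with earlier results of these data known. Named were the 10 genes, Uba3, and of each pathway list the called genes, the 2 with the highest level per kilobase and the one with the smallest p, besides the 3 genes nearest to each activator. Rec8 is named as the pathway gene that failed the filter. Marker lists are given as counts and sums, and the oocyte list also as a mean deviation.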

Additional observations from a re-analysis of the deposited data

How the results depend on the processing

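None of the 10 genes was called by limma under 17 of the 18 alternatives, and 1, Cdc20, was called at an adjusted p under 0.1. The alternative at an adjusted p under 0.01 could call none of them, because none was called at 0.05. The count over all genes was 1421. It was 2298 with array weights, 2176 at an adjusted p under 0.1 and 518 at an adjusted p under 0.01, and leaving out single libraries gave from 618 (control replicate 3 left out) to 1637 (control replicate 1), with 780 for control replicate 2, 681 for Uba3 cKO replicate 1 and 709 for Uba3 cKO replicate 3. With single libraries left out, the log2 difference of Fzr1 ran from -0.101 to 0.0431, above 0 for control replicate 2 and for Uba3 cKO replicate 2 (0.0304), and that of Ube2s from -0.228 to 0.0298, above 0 for control replicate 2. The differences of the other 9 genes of the complex kept their sign under all 18. Alternatives of the filter, variance model, threshold and replicate block leave each difference unchanged, so its sign could not change there. The call of Prc1 was lost under 10 of 18. The threshold of 0.01, 1 of these, could not keep it, because its adjusted p in limma was 0.0483. The change in Cdc20 minus Fzr1 ran from -0.32 to -0.19 over the libraries left out. Same-numbered libraries did not deviate together (correlations of -0.09, -0.20 and -0.05), and no library correlated best with its own number. Control replicates 1, 2 and 3 correlated best with Uba3 cKO replicates 2, 3 and 1, at 0.28, 0.25 and 0.19. Deviations were from each group's own mean, so a library's correlations with the other group cannot all be positive. With the replicate block 1258 genes and none of the 10 were called, Cdc20 had an adjusted p of 0.145 in limma, Prc1 lost its call (adjusted p = 0.13) and Cdc20 minus Fzr1 changed by -0.28 (exact sign-flip permutation p = 0.25, the smallest for 3 pairs). With an unknown depth, the spread of 3 libraries in each group sets what can be seen.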
